A study of Saccharomyces cerevisiae with 9 samples.

Results

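The distal part of the 5′ external transcribed spacer (ETS 1) of the yeast 35S rRNA gene was examined, defined as the positions after 350 and up to 670, counted from the first nucleotide of the transcript. All 320 positions of this stretch were used, out of 6858 positions in the deposited tables of the repeat. In the R64 assembly it lies on the minus strand at chrXII:466900-467219, inside ETS1-2, the spacer that precedes the 18S gene RDN18-2 in the copy RDN37-2. An identical stretch lies at chrXII:457763-458082 in RDN37-1, so reads of both annotated copies cannot be told apart. The positions were set by coordinate and not filtered by level, although the stretch was chosen with earlier results of these data known.

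The 9 libraries came from a MATa strain of Saccharomyces cerevisiae, called WT, that carried the alleles can1-100 and his3-11, leu2-3,112 and ade2-1, and trp1-1 as well as ura3-1. Its Pol I subunit RPA135 bore the tag RPA135-(HA)3-(His)7::TRP1. Cultures were grown in YPD at 30 ºC with nutation and were collected in 3 subphases of logarithmic growth, early log, mid log and late log, with 3 biological replicates of each. All groups share the strain, its tagged subunit and the medium, and the labels separate them by subphase alone. The assay was native elongating transcript sequencing (NET-seq), in which RNA is recovered with immunoprecipitated RNA polymerase I (Pol I). The 3′ end of each RNA is taken as the position that the enzyme had reached. The paper states that mature rRNA contaminates these libraries and cannot be told from nascent rRNA in the gene regions. Whether every end in the stretch marks an elongating enzyme was not tested.

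ETS 1 is transcribed before any mature rRNA and is removed from the pre-rRNA in steps. The U3 small nucleolar RNA pairs with it while the small subunit processome, the particle that matures 18S rRNA, assembles on the nascent transcript. A0 is the cleavage site inside this spacer, close to position 610, and it is followed on the transcript by A1 at the 5′ end of 18S rRNA. Elongating Pol I does not move evenly along the gene, so occupancy at single nucleotides forms peaks and troughs that depend partly on the sequence of the template and the RNA.

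The stretch around A0 carried the largest losses described here, so the RNA sequence of the last 80 positions is printed first (chrXII:466900-466979, minus strand). Capitals mark the named positions, which are 600, the A before 610, 610 itself, 622, 623, 626 and 627. It is read 5′ to 3′ with the letters of the deposited tables, which differed from the reference at 0 of the 320 positions.
A0 stretch: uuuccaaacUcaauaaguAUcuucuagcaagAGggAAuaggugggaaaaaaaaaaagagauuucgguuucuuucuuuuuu
Upstream of it lies a match to U3, 10 nucleotides at positions 470 to 479 that are complementary to U3 as encoded by SNR17A. It is shown in capitals with 5 nucleotides on either side (chrXII:467086-467105).
U3 site: gaaacUCAAAGAGUGcuaug
The highest and the most changed peaks outside the A0 stretch are shown with 15 nucleotides on either side, the peak itself in capitals, because the results turn on them.
position 377: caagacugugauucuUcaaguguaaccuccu
position 405: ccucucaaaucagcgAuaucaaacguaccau
position 437: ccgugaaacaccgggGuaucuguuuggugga
position 496: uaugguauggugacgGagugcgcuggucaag
position 553: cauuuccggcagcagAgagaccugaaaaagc

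Values are RPM, that is, each library's reads at a position per 1000000 reads on the repeat. They are therefore shares of the reads on this gene and hold no information on the amount of Pol I per cell. The libraries held 350940 to 7307420.5 reads on the repeat, a 20.8-fold range, and 2707 to 99163 reads in the stretch. A floor of 3 reads corresponded to between 0.411 and 8.55 RPM. The highest floor was that of early log replicate 3, where 39 of the 320 positions lay under it. In late log replicate 3 the number under the floor was 98. Counting intervals and floors cover counting error only.

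The libraries were sequenced in 3 runs, and the subphases were not spread evenly over them. Early log replicates 2 and 3 formed one run, the mid log libraries another, and early log replicate 1 shared the remaining run with the late log libraries. Mid log and its run cannot be told apart, whereas late log could be compared with early log replicate 1 within a run. Mid log replicate 1 also stood apart from the other mid log libraries. It lay above both of them at 320 of 320 positions, with a median ratio of 5.22 (quartiles 4.47 and 6.12, over 283 positions with at least 1 RPM). Its profile over the stretch was nevertheless that of its subphase. Its rank correlation (Spearman's rho across positions, which are not independent replicates) was 0.93 and 0.95 with the other mid log libraries, against 0.74 to 0.87 with early log and 0.73 to 0.85 with late log libraries. Results that rest on this library are given below with and without it.

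**Figure D1:**
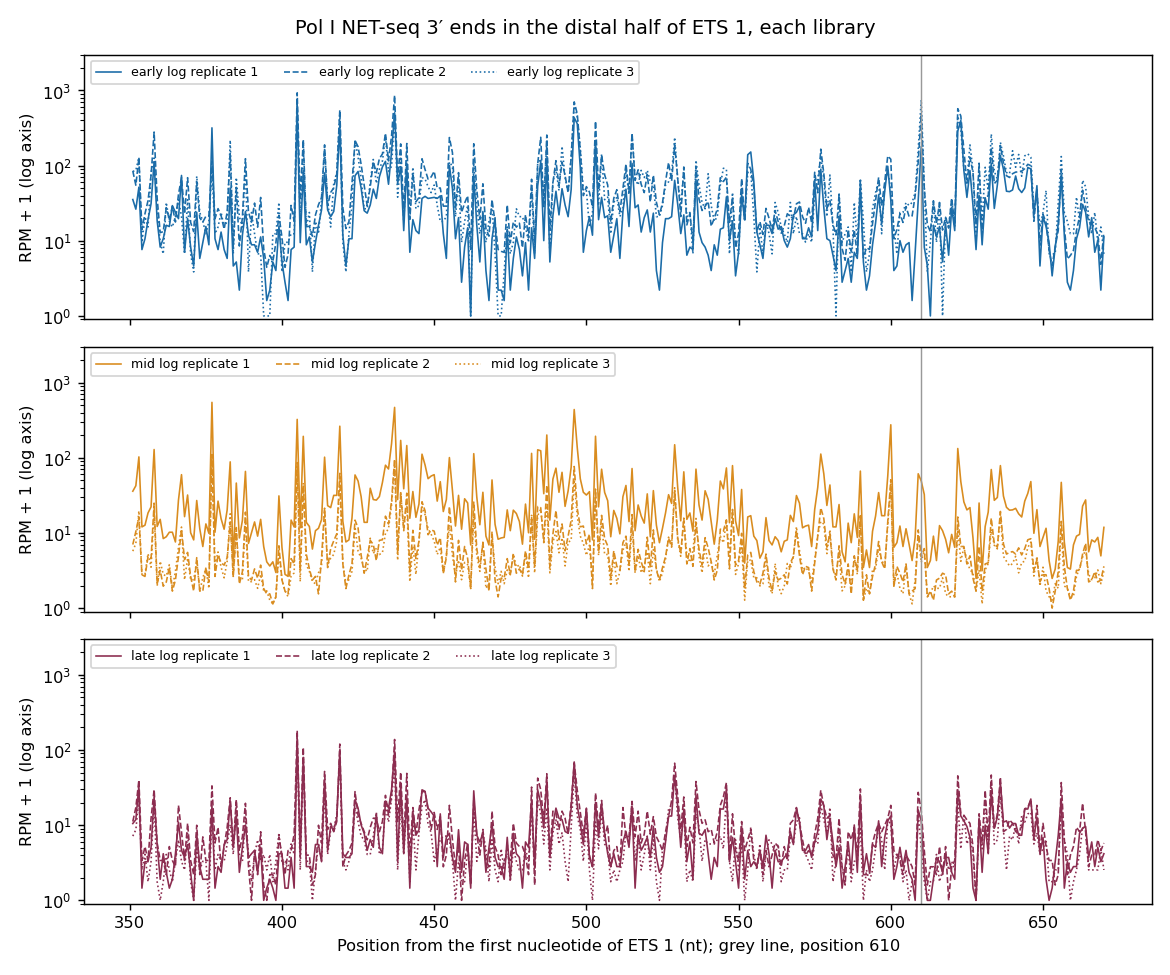
NET-seq signal (RPM + 1, log axis) against position from the first nucleotide of ETS 1, with the early, mid and late log libraries in separate panels and a line style for each replicate. Mid log replicate 1 runs above mid log replicates 2 and 3 at all 320 positions with peaks at the same places, and the peak at position 610 is seen in the early log panel.

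The share of 35S reads in the stretch was highest in early log. It was 1.14%, 2.13% and 1.88% in the early log replicates, 1.11%, 0.225% and 0.186% in those of mid log, and 0.267%, 0.354% and 0.208% in those of late log. Early log averaged 1.72% ± 0.51, mid log 0.507% ± 0.522 and late log 0.276% ± 0.073 (SD, n = 3 each). Late log lay below early log in every library, with a difference of -2.62 on the log2 scale of the share. Within the shared run, the difference of the late log libraries from early log replicate 1 was -2.08. Mid log also lay below early log in every library, but mid log replicate 1 came within a narrow margin of early log replicate 1, with 95% Wilson intervals of 1.10% to 1.12% in mid log replicate 1 and 1.12% to 1.16% in early log replicate 1. The mid minus early difference was -2.21, and -3.02 without mid log replicate 1. Late log and mid log overlapped. Their difference was -0.41, and it turned to 0.40 without mid log replicate 1.

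Most reads of the repeat lie in the mature 18S and 25S regions, where the paper describes mature rRNA contamination. The stretch was therefore also set against the spacers alone. Among spacer reads at least 20 nucleotides from a mature end, early log libraries had 32.2%, 31.8% and 32.9% in the stretch, mid log libraries 22.9%, 18.5% and 18.3%, and late log libraries 20.2%, 21.9% and 19.4%. Both later subphases lay below early log in every library on this scale, and mid log replicate 1 was much nearer to its own group. The log2 differences were smaller than on the scale of all 35S reads, -0.71 for mid log minus early log and -0.66 for late log minus early log. The late minus mid difference was 0.050 with overlapping libraries. Against all spacer reads, a denominator added after the data were seen, early log libraries had 26.5%, 26.5% and 26.1%, mid log libraries 18.7%, 6.18% and 5.63%, and late log libraries 10.5%, 11.5% and 8.48%. There the log2 differences were -1.61 for mid log minus early log and -1.39 for late log minus early log, and mid log replicate 1 again stood apart. The means of ITS 1 and ITS 2 did not move as one in mid log, although the libraries of both overlapped early log. ITS 1 held 1.00%, 1.89% and 1.70% of the 35S reads in mid log, against 0.620%, 1.01% and 1.14% in early log. ITS 2 averaged 0.622% in mid log and 0.936% in early log. Both lay below early log in every late log library, as the stretch did.

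The distal stretch was next compared with the promoter-proximal positions 1 to 350 of the same spacer, which removes any change that both share. Early log libraries had distal to proximal ratios of 0.832, 0.704 and 0.937, mid log libraries 0.498, 0.478 and 0.499, and late log libraries 0.616, 0.658 and 0.691. No library of any subphase overlapped another subphase, and the order was early log, then late log, then mid log. Mid log replicate 1 did not stand apart on this measure. When the F statistic was set against all assignments of the 9 libraries to 3 groups of 3, the labelled groups differed. This exact permutation test gave F = 23.98 and p = 0.00357, the smallest the design allows. Such reassignment takes the libraries as interchangeable, but all mid log libraries formed a sequencing run of their own. The p therefore cannot assign the difference to subphase rather than run, and the stretch was chosen with earlier results known. Within the shared run, early log replicate 1 (0.832) lay above the late log libraries (0.616 to 0.691). The log2 ratio changed by -0.74 in mid log relative to early log, by 0.41 in late log relative to mid log and by -0.32 in late log relative to early log.

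**Figure D2:**
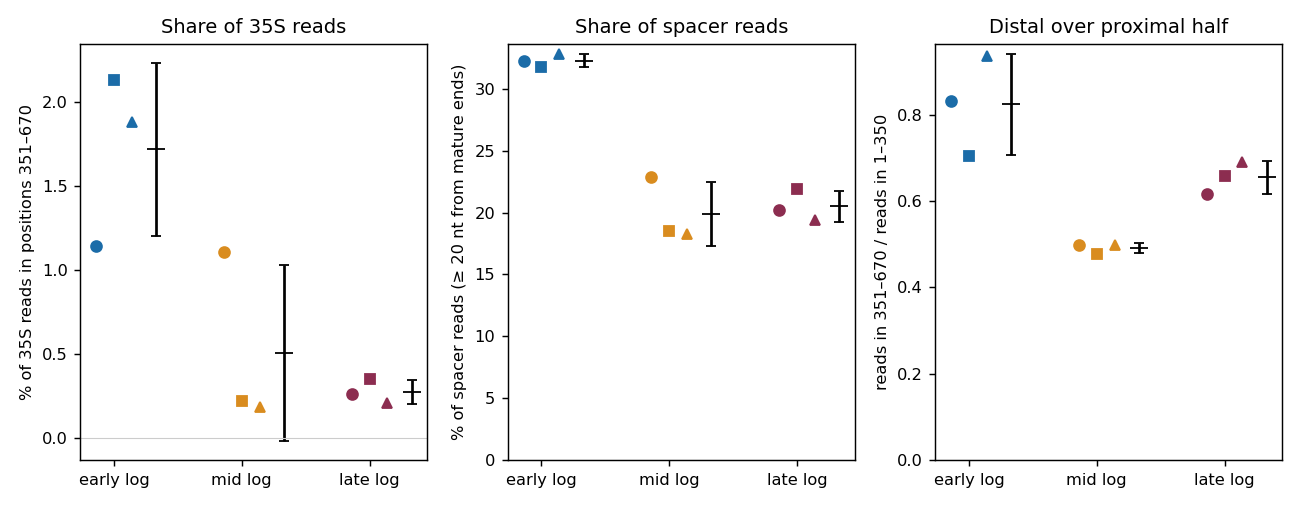
Share of 35S reads (left, %), share of spacer reads at least 20 nucleotides from a mature end (middle, %) and ratio of reads in the stretch over positions 1 to 350 (right) in each library, with circles, squares and triangles for replicates 1, 2 and 3 and the mean ± SD (n = 3) beside them. Mid log replicate 1 lies at 1.11% in the left panel, far from the other mid log libraries, but at 0.498 in the right panel, among them.

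Position by position, the change from early to late log reached most of the stretch. A position was called where the Benjamini-Hochberg adjusted p of limma, over all tested positions of the repeat, was under 0.05. In late log, 251 of 320 positions were lower than in early log and 0 were higher, against 35.7% of all tested positions called lower and 12.5% called higher. At an unadjusted p under 0.05 the count in either direction was 272, and on recovered reads edgeR called 236 lower and 0 higher and DESeq2 228 lower and 0 higher. The libraries did not overlap, with late log below early log, at 256 positions (42.5% of all tested positions). The median log2 change of the stretch was -2.11, and that of all tested positions was -0.44. Most reads and most tested positions lie in the mature regions, so the sizes of these changes depend on the reads there. As a share of spacer reads away from mature ends, the whole stretch changed by -0.66 in late log relative to early log. As a share of all reads on the repeat it changed by -2.62. Single positions were not tested on the spacer scale, here or in the comparisons below. Promoter-proximal ETS 1 had 223 of 338 positions called lower in late log, with a median change of -1.92, and ITS 1 had 152 of 358. With the sequencing run as a term in the fit, 152 positions of the stretch were called lower and 1 higher. Within the shared run, the late log libraries all lay below early log replicate 1 at 264 of 320 positions and all above it at 9. The fit with the run as a term and these counts both rest on early log replicate 1, the only early log library of that run. No share over all tested positions is given for either, so they describe the stretch alone.

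Fewer positions passed between mid log and early log. In mid log 87 of 320 positions were called lower and 0 higher, against 12.7% and 6.48% of all tested positions, and 119 positions had mid log libraries wholly below early log libraries (26.4% of all tested positions). At an unadjusted p under 0.05 the count in either direction was 177, and on recovered reads edgeR called 55 lower and 0 higher and DESeq2 105 lower and 0 higher. The median log2 change was -1.76 in the stretch and -0.27 over the repeat. The calls were concentrated at A0 and downstream of it. Positions 607 to 670 had 39 of 64 called lower, whereas the other 4 runs of 64 positions had 8, 14, 13 and 13. The count depended on which libraries were used. Without mid log replicate 1, 234 positions were called lower, and without mid log replicate 2 or mid log replicate 3 the count was 0, with 106 positions at an unadjusted p under 0.05 in either fit. Without early log replicate 2 or 3 the count was 10.

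Between late log and mid log, 6 of 314 tested positions were called lower and 1 higher, against 22.2% and 16.6% of all tested positions. Late log libraries lay wholly below mid log libraries at 18 positions (29.5% of all tested positions). The median change was -0.30, close to the -0.14 of the whole repeat. Without mid log replicate 1, 8 positions were called lower and 43 higher. The called positions that were lower in late log were 367, 377, 440, 501, 548 and 600, and the position that was higher was 631, just downstream of A0. Positions 440 and 631 fell outside the rule for named positions and were chosen after their values were seen. Position 631 read 9.07, 28.2 and 21.6 RPM in late log, against 11.2, 2.87 and 2.23 RPM in mid log, with a log2 change of 1.81 (limma, adjusted p = 0.040). Those libraries overlapped through mid log replicate 1. No position was called higher without mid log replicate 2 or 3, without late log replicate 2 or 3, with edgeR and library totals, or with the replicate block.

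**Figure D3:**
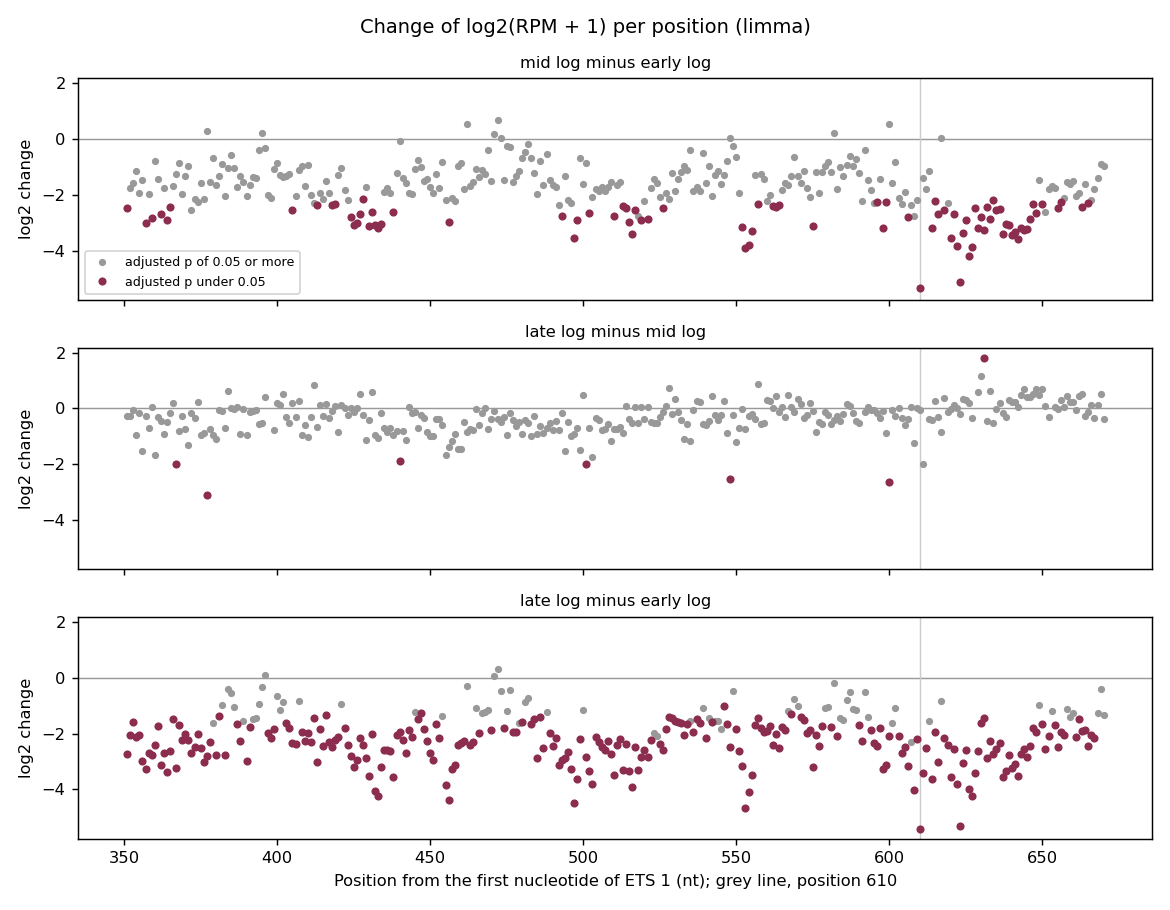
Change of log2(RPM + 1) at each position for mid log minus early log, late log minus mid log and late log minus early log (top to bottom) against position in ETS 1 (nt), with dark points for an adjusted p under 0.05 (limma). Called points in the top panel cluster beyond position 607 (39 of 64), and all 251 dark points of the bottom panel lie below 0.

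The sharpest losses were at A0. Position 610, a U, read 179, 488 and 750 RPM in early log, 48.1, 3.83 and 3.06 RPM in mid log, and 10.4, 14.4 and 3.85 RPM in late log. It was the highest position of the stretch in early log replicate 3 and ranked 10 and 6 of 320 in the other early log libraries, but ranked between 54 and 147 in mid and late log. Its mean was 9.55 ± 5.32 RPM in late log, against 472 ± 286 RPM in early log (SD, n = 3 each). The log2 change was -5.41 ± 0.53 (SE) in late log relative to early log (limma, adjusted p = 8.63e-05) and -5.35 ± 0.93 in mid log relative to early log (limma, adjusted p = 0.0130). Mid log and late log did not differ beyond their spread there, with a change of -0.06 ± 0.90. Leaving out mid log replicate 2 or 3 ended the mid log call, with an adjusted p of up to 0.064.

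The A just before position 610 had a smaller change. It read 33.2, 111 and 162 RPM in early log, 60.3, 9.99 and 8.49 RPM in mid log, and 14.96, 26.4 and 13.9 RPM in late log. Its log2 change in late log relative to early log was -2.20 ± 0.52 (limma, adjusted p = 0.0069), close to the median of the stretch, and this call was lost with the run as a term (adjusted p = 0.099). The change in mid log relative to early log was -2.20 ± 0.80 with an adjusted p of 0.089. As a share of the reads in the stretch, both later subphases overlapped early log there, and late log lay above mid log in every library. Positions 610 and 623 together, in contrast, held 5.05%, 4.43% and 5.62% of the reads in the early log libraries, 0.859%, 0.419% and 0.336% in the mid log libraries, and 0.850%, 0.778% and 0.369% in the late log libraries. Both were picked from these data as the called positions with the largest changes between mid and early log, so their joint share is a description only.

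A second group of early log peaks lay 12 to 17 nucleotides past position 610. Position 623 read 397, 456 and 308 RPM in early log, 47.2, 5.61 and 3.20 RPM in mid log, and 12.2, 13.2 and 3.85 RPM in late log, with every early log library above all others. Its log2 change was -5.30 ± 0.39 in late log (limma, adjusted p = 2.68e-05) and -5.12 ± 0.79 in mid log (limma, adjusted p = 0.0109), both relative to early log. Position 622 is an A and the highest local maximum of this group. It read 288, 571 and 453 RPM in early log, 132, 15.3 and 10.7 RPM in mid log, and 28.6, 44.3 and 19.3 RPM in late log. In late log it lost less than its neighbour 623, with a log2 change of -3.81 ± 0.32, though both were called. Positions 626 and 627 had log2 changes of -3.99 and -4.24 in late log relative to early log, and -4.19 and -3.89 in mid log relative to early log, each past the threshold. At 627, late log replicate 1 read 0.453 RPM, under its floor of 1.36 RPM. The mid log calls at 622, 623, 626 and 627 were lost without mid log replicate 2 or 3. The mid log call at 622 was also lost without early log replicate 2 or 3 and with edgeR and library totals. That at 627 was also lost with the replicate block.

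The 26 positions from 5 nucleotides before 610 to 20 after it (position 630) were also described as a group. They held 11.6%, 12.0% and 13.7% of the reads of the stretch in the early log libraries, 4.61%, 3.35% and 3.12% in the mid log libraries, and 4.74%, 5.19% and 4.80% in the late log libraries. The 3 subphases did not overlap, and both later subphases were below early log. Of these 26 positions, 23 (88.5%) were called lower in late log than in early log, against 78.4% of the stretch and 35.7% of all tested positions. In mid log 17 (65.4%) were called lower than in early log, against 27.2% of the stretch and 12.7% of all tested positions. The median log2 changes of the group were -2.82 in late log and -2.74 in mid log. Further downstream, late log was above mid log. The last 35 positions, up to 670, held 9.83%, 6.98% and 10.6% of the reads of early log libraries, 5.05%, 5.67% and 5.48% of those of mid log, and 9.64%, 8.84% and 9.31% of those of late log. Mid log lay below every library of the other subphases, which overlapped each other. In runs of 10 positions, mid log shares lay wholly below early log from 601 up to 650, which made 5 of 9 such runs, and overlapped it from 651 to 670. Late log shares lay wholly below early log in the 3 runs from 601 to 630, and away from A0 in the runs 421 to 430, 451 to 460, 491 to 500, 501 to 510 and 551 to 560. The run 491 to 500 averaged 5.53% in late log, against 9.25% in early log, and the run 601 to 610 averaged 1.52% in late log, against 3.92% in early log. The 40 positions that end at 610 overlapped between early log and both later subphases as shares (early log 7.67% to 11.2%, mid log 9.50% to 9.99% and late log 8.42% to 8.56%). Within them, both runs of 10 positions up to 590 held larger shares in every mid log and late log library than in early log, the opposite of position 610.

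**Figure D4:**
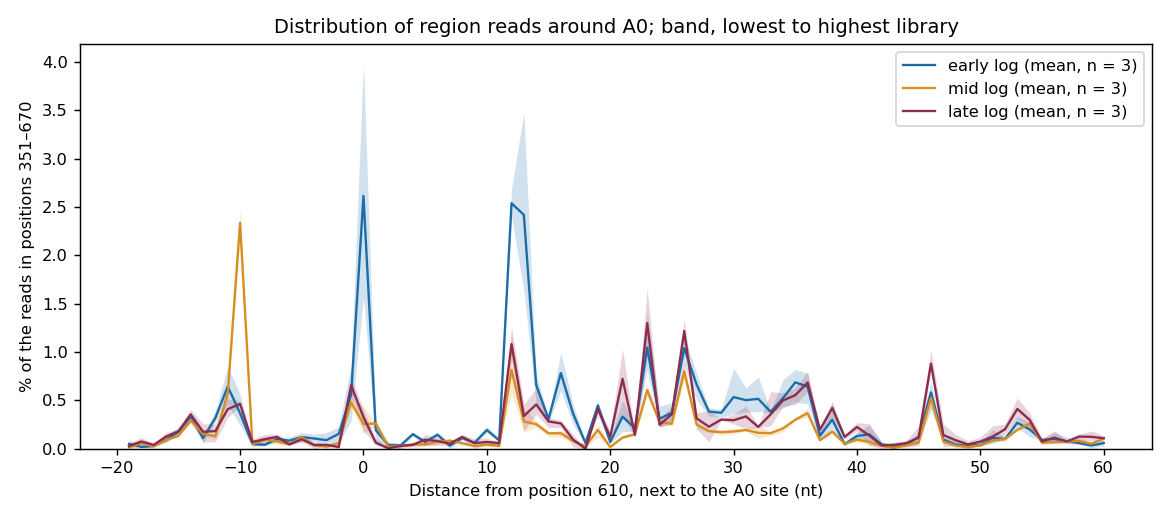
Share of the reads of the stretch (%) at each of its last 80 positions, plotted against distance from position 610 (nt), with the mean of 3 libraries as a line and the lowest to highest library as a band. The early log line stands far above the others at 0, +12 and +13 nt, and the mid log line far above the others 10 nt upstream (position 600).

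Elsewhere the highest peaks lost reads in late log, and some kept their rank. Position 405, an A, read 650, 928 and 627 RPM in early log, 324, 85.5 and 69.0 RPM in mid log, and 145, 181 and 110 RPM in late log. It was the highest position in 2 of the early log libraries and in all 3 late log libraries, and ranked 3 or 4 in mid log. Its log2 change was -2.34 ± 0.23 in late log relative to early log (limma, adjusted p = 8.43e-05), near the median of the stretch. Position 437, a G, read 503, 860 and 462 RPM in early log, 468, 95.1 and 80.05 RPM in mid log, and 96.1, 137 and 61.6 RPM in late log. It ranked between 2 and 5 in all 9 libraries. Position 496, also a G, ranked between 2 and 5 as well and had a log2 change of -3.26 ± 0.23 in late log relative to early log (limma, adjusted p = 2.68e-05). Of the 10 highest local maxima (377, 405, 414, 419, 437, 487, 496, 503, 529 and 622), all 10 were called lower in late log than in early log. Of the whole stretch 78.4% were called lower, and of all tested positions 35.7%. The changes at these maxima lay between -1.43 at position 529 and -3.82 at position 503. Position 503 ranked 31, 31 and 53 in late log, against 9, 9 and 17 in early log, whereas 414 ranked 7, 7 and 8 in late log, against 35, 22 and 22 in early log. Position 529 ranked 6 in all 3 late log libraries, against 44, 23 and 12 in early log. The call at 529 was lost in 6 of 16 alternatives, among them the run as a term (adjusted p = 0.45), and its libraries overlapped. In mid log relative to early log, 405, 419 and 622 of the 10 were called, against 27.2% of the stretch and 12.7% of all tested positions. These calls were lost in 4, 7 and 5 of 15 alternatives, in that order.

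Other large losses lay outside the list of highest local maxima. Position 497 among them still ranked 5, 6 and 7 in the early log libraries, next to the higher 496. Position 497, the A that follows 496, read 360, 488 and 442 RPM in early log, 136, 20.1 and 15.7 RPM in mid log, and 17.2, 28.2 and 12.3 RPM in late log. Its log2 change in late log relative to early log was -4.48 ± 0.28 (limma, adjusted p = 2.54e-05), compared with -3.26 at 496. Position 553, an A, read 139, 107 and 79.8 RPM in early log, 15.3, 4.11 and 3.34 RPM in mid log, and 3.63, 5.39 and 1.54 RPM in late log. The change was -4.66 ± 0.41 in late log (limma, adjusted p = 4.67e-05) and -3.90 ± 0.54 in mid log (limma, adjusted p = 0.0093), both relative to early log. Position 456, a U, changed by -4.38 ± 0.46 in late log (limma, adjusted p = 0.00011). The values at 456 and 553 in late log replicate 3, 2.31 and 1.54 RPM, were at or under its floor of 2.31 RPM.

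A different pair of peaks held larger shares of the reads in mid log. They were picked from these data as the called positions with the largest changes between late and mid log, which favoured this contrast. Position 377, a U, read 317, 114 and 91.2 RPM in early log, 546, 109 and 101 RPM in mid log, and 17.2, 32.3 and 14.6 RPM in late log. It was the highest position of the stretch in all 3 mid log libraries, while its rank was 7, 44 and 53 in early log and 34, 19 and 33 in late log. Its log2 change was -3.12 ± 0.58 in late log relative to mid log (limma, adjusted p = 0.0027) and 0.29 ± 0.68 in mid log relative to early log (limma, adjusted p = 0.77), and the late log libraries lay below all others. Position 600, a U 10 nucleotides upstream of 610, read 33.8, 121 and 45.6 RPM in early log, 274, 50.1 and 43.2 RPM in mid log, and 12.2, 17.4 and 9.24 RPM in late log. The change was -2.65 ± 0.61 in late log relative to mid log (limma, adjusted p = 0.0077). In mid log relative to early log it was 0.55 ± 0.73 (limma, adjusted p = 0.60), with overlapping libraries. In RPM, neither 377 nor 600 was called higher in mid log than in early log. Positions 377 and 600 together held 3.08%, 1.10% and 0.728% of the reads of the stretch in early log libraries, 7.39%, 7.08% and 7.75% in mid log libraries, and 1.11%, 1.40% and 1.15% in late log libraries. Both calls between late and mid log passed in all 15 alternatives.

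The remaining called losses between late and mid log were weaker. Position 548, an A, read 5.89, 13.2 and 0.770 RPM in late log, against 77.8, 19.6 and 19.4 RPM in mid log, where the lowest late log value was under the floor of 3 reads. The change was -2.53 ± 0.78 (limma, adjusted p = 0.029), and it was lost without late log replicate 1 or 3 (adjusted p of up to 0.095). Positions 367 and 501, both C, changed by -2.00 and -1.98 with adjusted p of 0.041 and 0.037 (limma), and each was lost when late log replicate 1, 2 or 3 was left out.

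Among well-covered positions, a few moved little between early and late log. The smallest changes among positions at or above the median level were -0.56 ± 0.81 at position 385, -0.72 ± 0.52 at 482 and -0.76 ± 0.34 at 569 (limma, adjusted p = 0.59, 0.28 and 0.090), and all 3 are A. Position 569 read 15.9, 16.2 and 10.01 RPM in late log, against 22.9, 30.1 and 19.95 RPM in early log, without overlap. Position 385 read 12.7, 21.0 and 18.5 RPM in late log and 4.22, 50.5 and 68.4 RPM in early log, where early log replicate 1 was lowest of all. Its direction depended on the early log libraries used.

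**Figure D5:**
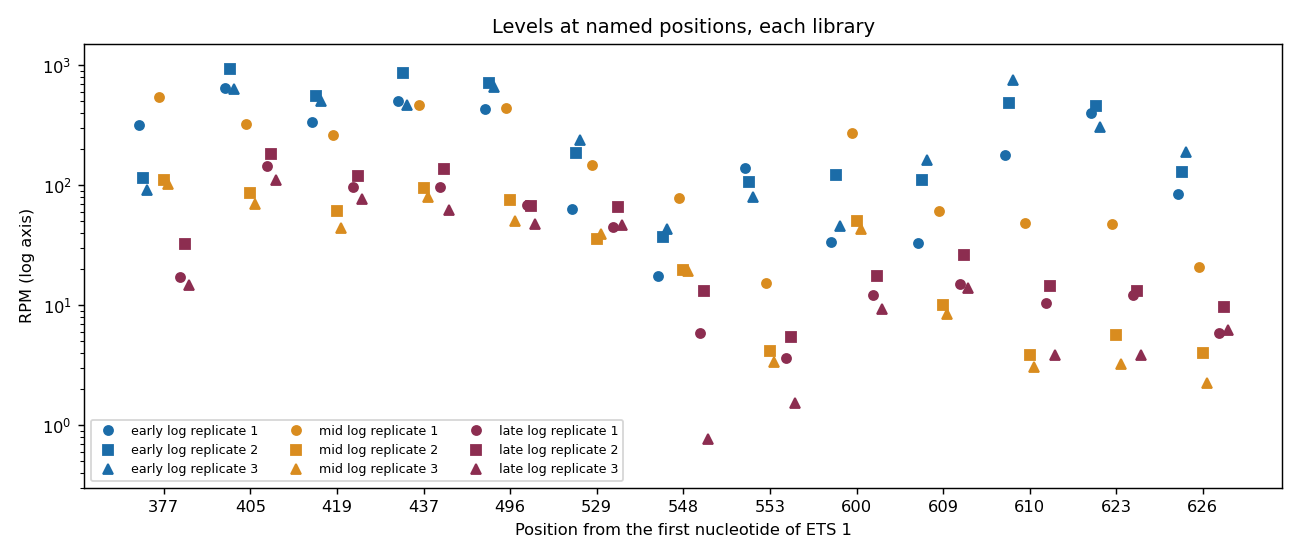
RPM (log axis) at 13 named positions in each of the 9 libraries, early log, mid log and late log side by side at each position, with circles, squares and triangles for replicates 1, 2 and 3. At 610 and 623 the early log libraries sit at 179 RPM or above and all others at 48.1 RPM or below, while at 377 the late log libraries, at 14.6 to 32.3 RPM, are the ones apart.

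The U3 pairing site at positions 470 to 479 lay in a trough. Its 10 positions held 0.534%, 0.596% and 0.546% of the reads of the stretch in the early log libraries, 1.07%, 0.899% and 1.19% in the mid log libraries, and 1.02%, 1.10% and 1.07% in the late log libraries. Both later subphases were thus above early log in every library as a share, which was not particular to this site. Of the 32 runs of 10 positions, 10 lay wholly above early log and 9 wholly below it in mid log. In late log 12 runs lay wholly above early log and 8 wholly below it. The site averaged 9.68 ± 3.34 RPM per position over the early log replicates, 5.39 ± 5.66 over those of mid log, then 2.95 ± 0.85 over those of late log (SD, n = 3 each). A run of 12 nucleotides complementary to U3 was also found from position 650 on, and that match is a description of letters only.

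The base at the 3′ end differed between subphases. U makes up 27.5% of the positions and held 14.8%, 15.7% and 16.5% of the reads of early log libraries, 20.2%, 20.2% and 20.5% of those of mid log, and 13.9%, 14.5% and 14.8% of those of late log. The mid log libraries were above all others. Without positions 610 and 623 the U share was 19.98%, 20.1% and 20.4% in mid log, against 14.0%, 14.1% and 13.3% in early log. Without positions 377 and 600, both U, early log libraries had 12.1%, 14.8% and 15.9%, mid log libraries 13.9%, 14.1% and 13.8%, and late log libraries 12.9%, 13.3% and 13.8%, so that all subphases overlapped. Positions 377 and 600 were picked from these data as the called positions with the largest changes between late and mid log. Removing them therefore favoured a lower U share in mid log, and the overlap is a description only. A, at 30.6% of the positions, averaged 38.4% ± 1.1 of the early log reads, 34.3% ± 0.8 of the mid log reads and 42.2% ± 0.6 of the late log reads (SD, n = 3 each), and G, at 24.1% of the positions, held 33.8%, 31.4% and 32.8% on average. Both purines were above their share of positions in all 9 libraries. In the 10 bases before the 32 highest positions, U made up 18.8% to 22.5% in early log libraries, 26.3% to 28.7% in mid log libraries and 26.3% to 29.4% in late log libraries, against 26.7% before all positions of the stretch.

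Mid log libraries were closely alike in profile, while the ranges of the other subphases overlapped those between subphases. Across the 320 positions, Spearman's rho between libraries was 0.81 to 0.89 within early log, 0.93 to 0.95 within mid log and 0.78 to 0.84 within late log. Between subphases it was 0.69 to 0.87 for early and mid log, 0.73 to 0.85 for mid and late log, and 0.66 to 0.80 for early and late log. These values are a description across positions of libraries that differ in depth. By the mean of each subphase, 267 of 320 positions decreased stepwise over early, mid and late log, 41 were lowest in mid log with early log highest, and 12 were higher in mid log than in early log. At 0 positions did the late log mean exceed the early log mean. The stepwise order rested on mid log replicate 1: all 3 late log libraries were below it at 305 positions, but were above both other mid log libraries at 109 positions.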

How the data were processed

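The authors removed duplicate reads with Fqtrim, trimmed linkers with cutadapt 3.4, aligned reads to R64 with STAR 2.7.3a and counted read ends with bedtools 2.28.0, per the study's methods and the labels. The deposited RPM values were found to be scaled so that each library adds up to 1000000 without the last 119 positions of the repeat. The smallest value above 0 was taken as 1 read, and 99.9% to 100% of positions were then whole multiples within 0.01 read, the remainder being fractional. The deposited tables also hold the authors' p-values and ratios of means, which were not used. Columns named for no sample numbered 0.

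Positions that averaged 1 RPM or more in the 6 libraries compared were tested with limma 3.58.1 (R 4.3.3, lmFit and eBayes with trend) on log2(RPM + 1), with Benjamini-Hochberg adjustment over all tested positions and a threshold of 0.05. A log2 change is the difference of mean log2(RPM + 1) and understates changes of low positions. The ratio of distal to proximal reads was tested by exact permutation, two-sided by construction of F. For a single value compared between 2 subphases of 3 libraries, the smallest exact p is 0.1, so none is given. Alternatives were other pseudocounts and filters, a median log ratio set to 0, edgeR 4.0.16 and DESeq2 1.42.0 on recovered reads, the run, the replicate block and each library left out. The fits were tested on simulated data.

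Named positions were the 10 highest local maxima, for each pair the 5 called positions with the largest change and no overlap of libraries, positions 609 and 610, and the 3 well-covered positions with the smallest change from early to late log. Members and lists were chosen with earlier results of these data known.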

Additional observations from a re-analysis of the deposited data

How the results depend on the processing

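The count for late log minus early log was 251 positions. It was 190 to 290 when 1 library was left out and moved by over 1.5 times only with the sequencing run as a term (153). The count for mid log minus early log, 87, was 55 with edgeR and TMM, 38 with edgeR and library totals, and 0 to 234 with 1 library left out. The count for late log minus mid log, 7, was 12 with DESeq2 and 2 to 51 with 1 library left out. Deviations of same-numbered libraries correlated at -0.47 to 0.36, above 0.1 in 3 of 9 pairs and not in every pair of any comparison, so the numbers were not taken to pair them. With the replicate block the counts were 13 for mid log minus early log, 7 for late log minus mid log (all lower) and 262 for late log minus early log.

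The log2 change of the 35S share was -1.73 to -3.02 for mid log minus early log, -2.43 to -2.89 for late log minus early log and -0.89 to 0.40 for late log minus mid log with 1 library left out. Against spacer reads it was -0.71, -0.66 and 0.050 for mid log minus early log, late log minus early log and late log minus mid log, against all spacer reads, added after the data were seen, -1.61, -1.39 and 0.22, and within the shared run -2.08 for late log minus early log. The permutation p of the ratio was 0.0036 to 0.0071 with 1 library left out. At position 377 the mid log minus early log change turned to -0.06 without early log replicate 3 and ran from -0.50, without mid log replicate 1, to 0.84. At position 385 the late log minus early log change turned to 1.79 with the run as a term and 0.14 without early log replicate 3, and at position 482 it turned to 0.57 with the run as a term. The cause was not tested. Depth limits positions near the floor, most in late log replicate 3.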
